A study of Mus musculus with 4 samples.

Results

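Tars encodes the threonyl-tRNA synthetase, the enzyme that loads threonine onto its transfer RNA, and its start lies beside the upstream boundary of the topologically associating domain (TAD) on mouse chromosome 15 into which the study placed its operator arrays. The contacts described here are those of 4 neighbouring bins of 6.4 kb around the Tars start (chr15:11321601-11347200, mm9) with every other bin of the captured region (chr15:10278401-13196800), leaving out the bins that hold the arrays. This gave 1810 bin pairs of the 104196 in the region, of which 1806 had a balanced value and 1568 to 1602 held at least 1 read pair in a given library. The maps came from tiled Capture-C, which counts ligation products between sites of an enriched region after crosslinking and cutting with MboI, in E14 mouse embryonic stem cells (mESCs), with 1 library for each of 4 groups.

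All cells came from a parental clone (D6) whose internal CTCF sites in this TAD had been deleted (given as a double knockout), and they carried a TetO and a LacO array on the same single allele, the fluorescent repressors TetR-tdTomato and LacI-eGFP, and RAD21 tagged on both alleles with HaloTag and the FKBP degron. In line 1B1, cassettes of 3 CTCF sites in convergent orientation sit beside both arrays and the promoters of the resistance genes are gone. Line 1A2 was made from 1B1 by removing these CTCF sites, with Cre on the TetO side and Cas9 on the LacO side. Line 1F4 also lacks them but kept the Pgk1 promoters of its resistance cassettes. The fourth group was 1B1 treated for 2 h with 500 nM dTAG-13, which degrades RAD21, a core subunit of cohesin (1B1 -cohesin). Each line is 1 clone and each group 1 library, so no test between groups was possible. Errors given as ± are standard errors from the counting of reads and do not cover variation between cultures. As only 1 of 2 alleles carries the arrays, every value mixes an edited and an unedited chromosome. The Tars boundary itself was not edited in any line.

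Cohesin is a ring-shaped complex that extrudes chromatin loops, and CTCF is a DNA-binding protein that halts extrusion when cohesin meets it from one side. A TAD boundary is a stretch that loops seldom cross, and its bins typically contact the other boundary of the same domain. Genes of general cell function, such as those for tRNA synthetases, often lie at such boundaries.

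The Tars gene (ENSMUSG00000022241.5) lies on the minus strand at chr15:11313418-11329413. The first of the 4 bins, here the gene-body bin (11321601 to 11328000), lies entirely in Tars and holds 748 exon bases. The next, the start bin (11328001 to 11334400), is covered by Tars for 22.1% of its length and holds the transcription start. The last 2, the first boundary bin (11334401 to 11340800) and the second boundary bin (11340801 to 11347200), hold no annotated gene. Upstream below means lower coordinates, through the Tars gene body, and downstream means higher coordinates, into the TAD with the arrays. The TAD ends at the downstream boundary bin (11891201 to 11897600), which lies 565 kb from the Tars start. The 4 bins held 20, 20, 10 and 12 MboI sites, against a median of 15 per bin in the region (range 4 to 38).

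The promoter is shown because the bins were chosen for this start. RefSeq places it on the minus strand of GRCm38.p6 at chr15:11399629-11399908, and the same bases occur in mm9 at 11329384 to 11329663. The run covers 250 bases before and 30 after the start, and the capitals mark the letters of 3 motifs, each searched on both strands. The motifs are CCAAT, which appears in this run as its reverse complement ATTGG, then GGGCGG, the core of a GC box, and CACGTG, an E-box.
Tars: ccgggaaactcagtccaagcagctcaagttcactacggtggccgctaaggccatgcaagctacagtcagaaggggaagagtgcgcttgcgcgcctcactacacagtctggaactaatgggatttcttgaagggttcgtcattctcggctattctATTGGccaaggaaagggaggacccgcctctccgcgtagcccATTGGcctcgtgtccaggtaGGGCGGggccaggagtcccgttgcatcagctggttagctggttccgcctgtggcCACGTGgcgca
The first motif occurred 2 times and the other 2 occurred 1 time each. Of 32851 RefSeq promoters of 300 bases, 37.4%, 35.7% and 7.15% held the respective motif at least once. The promoter of Rad1, the far upstream partner described below, held none of the 3 in either of its 2 RefSeq entries. A match is a string of letters in this window and was not tested as a binding site.

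CTCF binds a known core consensus, and the region was scanned for it on both strands. The scan was added after the contact values had been seen. An exact match to the consensus (12 positions, of which 8 were a single letter) occurred 10 times, in 9 of the 456 bins (1.97%). The first boundary bin held 2 of these, and was the only bin of the region with more than 1. Both lie on the minus strand (mm9), at 11336795 to 11336806 and at 11337309 to 11337320, and are shown with 8 flanking bases on each side, the match in capitals.
First boundary bin, match 1: acatttcaCCAGCAGAGGGCgtcacttg
First boundary bin, match 2: acatgtaaCCACTAGGTGGCgaccgtct
The start bin and the second boundary bin held no match with up to 1 mismatch. The gene-body bin held 1 such match, on the plus strand at 11326371 to 11326382, and the first boundary bin held 2 further ones, also on the plus strand. With 1 mismatch allowed, 191 of the 456 bins (41.9%) held a match, so that this second count sets no bin apart. The downstream boundary bin held no exact match and 3 with 1 mismatch, of which 1 was on the minus strand (11896316 to 11896327). The other 2 were on the plus strand (11895198 to 11895209 and 11895751 to 11895762). They are not printed, nor are the 2 of the first boundary bin with 1 mismatch, so the strands of those printed below are no finding.
Gene-body bin, 1 mismatch: caagtaaaCCACCAGAAGGCagaagcag
Downstream boundary bin, 1 mismatch: cttttttgCCAGAAGGTGGCagcaaagc
Of the 9 bins with an exact match, 2 lay within 1 bin of the 10 boundaries called in the region. Whether CTCF occupies these sequences was not measured in the maps.

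The 4 bins were selected on insulation in 1A2 and 1F4, the log2 contact across a bin in a square of 20 by 20 bins set against the regional mean, so these levels are a description and no finding. The first boundary bin was the minimum that called the boundary, with insulation of -1.10 in 1A2, -1.09 in 1F4 and -0.96 in 1B1, and -0.28 without cohesin (the order of all lists below). The start bin, 1 bin away, had -1.07, -1.04, -0.92 and -0.25, and the gene-body bin had -0.99, -0.93, -0.87 and -0.24. The second boundary bin had -1.06, -1.05, -0.92 and -0.27. Just outside the chosen range, the next upstream bin had -0.996, -0.95, -0.87 and -0.28, and the next downstream bin had -0.94, -0.93, -0.84 and -0.22. Insulation thus varied little over these 6 bins within a library, and the bins outside the range were nearly as insulated as those within it.

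The library without cohesin stood apart. Insulation of the first boundary bin was 0.68 higher in 1B1 -cohesin than in 1B1. The standard deviation of its level over the 3 untreated lines was 0.08, and no counting error was computed for insulation. As the bin was chosen as a minimum of insulation, this rise is a description too. The start, second boundary and gene-body bins followed closely, with rises of 0.67, 0.65 and 0.63. The 3 untreated lines lay within 0.14 of each other at the first boundary bin, and 1B1 was the least insulated of them.

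Contacts of the 4 bins with single partners are given as observed/expected, the balanced contact divided by the mean of all bin pairs at the same separation in the region. A value of 1 is then the average pair at that distance, and the 4 bins are called the anchor where they are averaged.

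**Figure D1:**
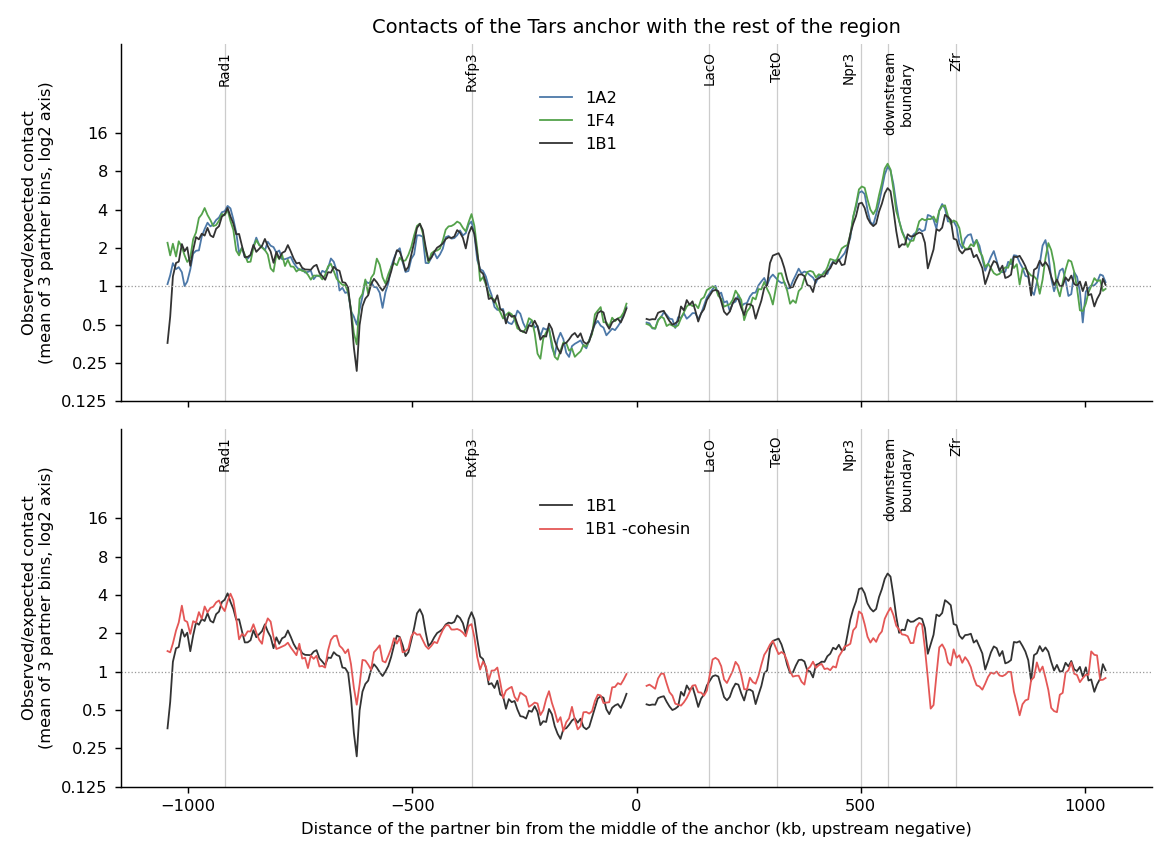
Observed/expected contact of the anchor (mean over its 4 bins and 3 partner bins, log2 axis) against the distance of the partner from the middle of the anchor in kb, with lines for 1A2, 1F4 and 1B1 in the upper panel and for 1B1 and 1B1 -cohesin in the lower. Contacts were below 1 close to the anchor on both sides and above 1 around Rxfp3, Rad1, Npr3 and the downstream boundary, where 1A2 reached 8.67 and 1B1 -cohesin 2.91.

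Close to the anchor, contacts were sparse on both sides and came nearer to the average when cohesin was degraded. The bins were chosen for low contact across them in 1A2 and 1F4, so these short-range values are a description too. At 20 to 50 kb upstream the mean observed/expected was 0.53 in 1A2, 0.56 in 1F4 and 0.53 in 1B1, and 0.83 in 1B1 -cohesin, a log2 difference of 0.66 ± 0.08 between the last 2. At 20 to 50 kb downstream it was 0.48, 0.51, 0.55 and 0.75, a difference of 0.46 ± 0.09. The untreated lines thus overlapped closely at this range, and 1B1 -cohesin was the highest on both sides. At 50 to 100 kb the untreated lines differed more, with 0.46, 0.55, 0.54 and 0.62 upstream and 0.60, 0.51, 0.61 and 0.73 downstream. The log2 ratio of 1F4 over 1A2 was 0.27 ± 0.10 upstream and -0.23 ± 0.10 downstream, and that of 1B1 -cohesin over 1B1 was 0.20 ± 0.10 and 0.27 ± 0.10. At 100 to 250 kb the 2 sides were unequal in every library, with 0.39, 0.37, 0.41 and 0.49 upstream and 0.72, 0.77, 0.72 and 0.88 downstream. Here too 1B1 -cohesin was the highest, by 0.24 ± 0.10 and 0.29 ± 0.09 against 1B1.

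Farther out the anchor made more contacts than the average pair. The difference after degradation had the opposite sign, except at 500 to 1000 kb upstream. At 250 to 500 kb upstream the values were 1.67, 1.85, 1.71 and 1.51, a log2 difference of -0.18 ± 0.06 between 1B1 -cohesin and 1B1 and of 0.15 ± 0.05 between 1F4 and 1A2, and downstream they were 1.63, 1.62, 1.53 and 1.28, a difference of -0.25 ± 0.06. At 500 to 1000 kb downstream the values were 2.54 in 1A2, 2.59 in 1F4 and 2.10 in 1B1, and 1.30 in 1B1 -cohesin. This was the widest gap of any range, at -0.69 ± 0.06 between 1B1 -cohesin and 1B1, and the log2 ratio of 1B1 there was -0.28 ± 0.05 over 1A2 and -0.31 ± 0.05 over 1F4. At the same distances upstream the 4 values were 1.76, 1.77, 1.73 and 1.88, and 1B1 -cohesin differed from 1B1 by 0.12 ± 0.06.

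**Figure D2:**
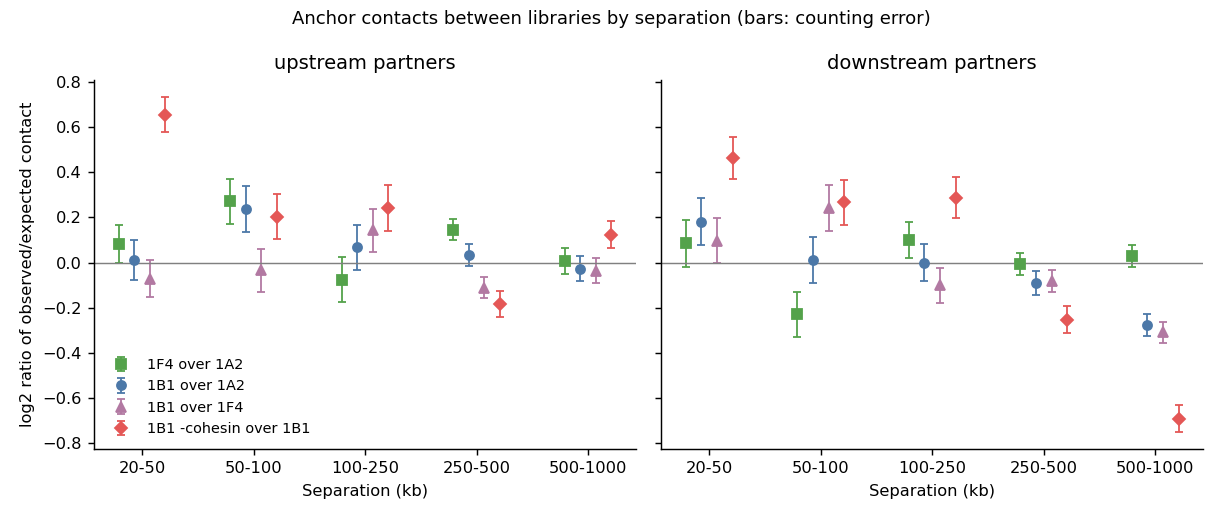
Log2 ratio of the anchor's mean observed/expected contact between libraries, for upstream (left) and downstream (right) partners in 5 ranges of separation in kb, with counting errors as bars. After cohesin degradation the downstream ratio went from 0.46 at 20 to 50 kb to -0.69 at 500 to 1000 kb, while the upstream ratio was 0.66 at the shortest range and 0.12 at the longest.

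As shares of reads, which include the decay with distance, the reads of the anchor with partners over 50 kb away were divided in much the same way in all libraries. Upstream partners took 41.4% in 1A2, 42.7% in 1F4 and 43.9% in 1B1, and 45.5% in 1B1 -cohesin (95% exact binomial interval for the last 44.5 to 46.6%). The interior of the TAD took 31.7%, 32.3%, 31.2% and 32.0%. The downstream boundary and everything beyond it took 27.0%, 25.0%, 24.9% and 22.4% (21.5 to 23.4% for the last). The share of the TAD interior therefore differed by no more than about 1 point. The spread was wider for upstream partners and for contacts with and beyond the far end of the TAD.

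The side to which a bin made its contacts was measured as the balance, the log2 ratio of downstream to upstream observed/expected at the same separations of 50 to 500 kb (69 pairs per side for each bin). As 1 anchor, the 4 bins had a balance near 0 at this range, with 0.10 ± 0.04 in 1A2, -0.02 ± 0.04 in 1F4 and 0.00 ± 0.04 in 1B1, and 0.00 ± 0.05 in 1B1 -cohesin. This rests on the range: over 20 to 200 kb the balance was 0.60, 0.62, 0.55 and 0.50, and over 50 to 1000 kb it was 0.39, 0.36, 0.18 and -0.33. At 50 to 500 kb the single bins differed. The gene-body bin had -0.92 ± 0.08, -1.01 ± 0.07, -0.82 ± 0.07 and -0.11 ± 0.09, which is more upstream contact in the 3 untreated lines. The start bin had -0.48 ± 0.09, -0.60 ± 0.08, -0.54 ± 0.09 and -0.42 ± 0.11, but over 20 to 200 kb it had 0.12, 0.15, 0.27 and 0.33, and over 50 to 1000 kb 0.021, 0.015, -0.20 and -0.47. The first boundary bin had 0.31 ± 0.09, 0.13 ± 0.08, 0.05 ± 0.09 and 0.09 ± 0.12, and the second boundary bin had 1.09 ± 0.09, 0.94 ± 0.08, 0.92 ± 0.08 and 0.35 ± 0.11, downstream in every library at this range. At this range the first boundary bin was thus within 2 counting errors of 0 in all libraries but 1A2. Over 20 to 200 kb it had 0.75, 0.72, 0.74 and 0.56, and over 50 to 1000 kb 0.74, 0.65, 0.41 and -0.13. The second boundary bin had 1.34, 1.25, 0.94 and 0.72 over 20 to 200 kb, and 1.11, 1.15, 0.92 and -0.22 over 50 to 1000 kb. In 1B1 -cohesin the gene-body bin had 0.30 and -0.53 over these ranges, so that in this library all 4 bins were above 0 over 20 to 200 kb and below 0 over 50 to 1000 kb, by little more than 1 counting error in the first boundary bin (-0.13 ± 0.10). Bins on either side of the anchor did the same, except that the next downstream bin was within its error of 0 over 50 to 1000 kb (-0.01 ± 0.09).

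The levels behind these ratios were as follows. In 1B1 the gene-body bin had 1.21 ± 0.04 upstream and 0.68 ± 0.03 downstream, and in 1B1 -cohesin it had 0.98 ± 0.04 and 0.91 ± 0.04. In 1B1 the second boundary bin had 0.96 ± 0.04 upstream and 1.81 ± 0.06 downstream, and in 1B1 -cohesin it had 1.09 ± 0.06 and 1.39 ± 0.07. Both outer bins of the anchor were thus more even in 1B1 -cohesin, by 0.71 ± 0.12 for the gene-body bin and by -0.56 ± 0.13 for the second boundary bin. The start bin (0.12 ± 0.15) and the first boundary bin (0.04 ± 0.14) differed by less than their counting error at this range, but over 50 to 1000 kb they differed by -0.27 ± 0.12 and -0.54 ± 0.13. The bins on either side behaved like the outer bins of the anchor: the 3 next upstream bins had balances of -1.04 to -1.48 in 1B1 and -0.35 to -0.44 in 1B1 -cohesin, and the 3 next downstream bins had 0.67 to 0.90 in 1B1 and 0.16 to 0.41 in 1B1 -cohesin.

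**Figure D3:**
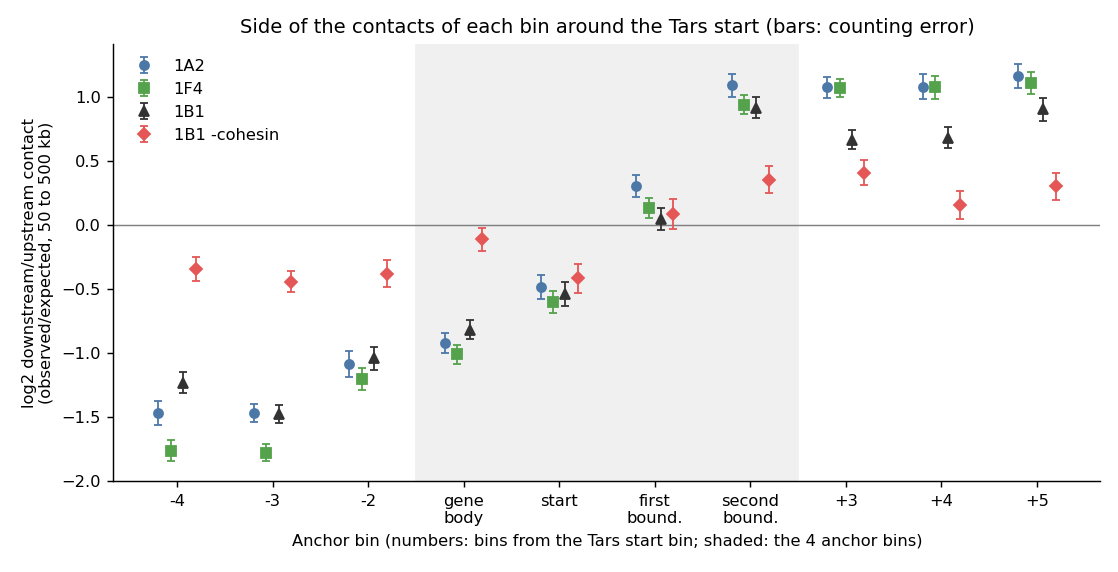
Balance (log2 downstream over upstream observed/expected contact at 50 to 500 kb, with counting error) of the 4 anchor bins (shaded, the 2 boundary bins as first and second bound.) and of the 3 bins on either side, for the 4 libraries. In 1A2, 1F4 and 1B1 the balance rose from below -1 to above 0.6 across the Tars start, and in 1B1 -cohesin it stayed between -0.44 and 0.41.

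The tilt of the gene-body bin lay at 200 to 500 kb and depended on the range chosen. At those distances its upstream contact was 1.69, 1.78, 1.58 and 1.22 and its downstream contact 0.81, 0.78, 0.78 and 1.03. Over 20 to 200 kb its balance in 1B1 was 0.02, and over 50 to 1000 kb the difference between 1B1 -cohesin and 1B1 had the other sign, -0.18 ± 0.10. The second boundary bin differed at long range on both sides. Its downstream contact at 500 to 1000 kb was 2.46, 2.61, 2.10 and 1.21 (-0.80 ± 0.13 between 1B1 -cohesin and 1B1), and its upstream contact there was 1.13, 1.06, 1.11 and 1.87 (0.76 ± 0.14). In 1B1 -cohesin this bin, on the TAD side of the boundary, thus had more far upstream contact than in any untreated line.

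In the untreated lines the anchor's contact with the other end of the TAD was above that with any protein-coding gene start. With 3 bins centred on the downstream boundary, 560 kb away, the mean observed/expected was 8.67 ± 0.41 in 1A2 (472 reads), 9.19 ± 0.39 in 1F4 (581), 5.91 ± 0.32 in 1B1 (359) and 2.91 ± 0.29 in 1B1 -cohesin (110). The 2 lines without CTCF sites beside the arrays overlapped, 1B1 was lower, and 1B1 -cohesin was the lowest. The log2 ratio was -1.02 ± 0.16 for 1B1 -cohesin over 1B1, -0.55 ± 0.10 for 1B1 over 1A2, -0.64 ± 0.10 for 1B1 over 1F4 and 0.08 ± 0.09 for 1F4 over 1A2. Over 358 other anchors these ratios had standard deviations of 0.58, 0.43, 0.42 and 0.40, wider than the counting errors given. Set against the mean of 1A2 and 1F4 in place of 1B1, the ratio of 1B1 -cohesin was -1.62 ± 0.15. That 1B1 is lower than both lines without the sites is a difference of clones as much as of CTCF sites, which cannot be told apart here. By bin, the contact in 1A2 was 4.43 for the gene-body bin, 5.06 for the start bin, 13.6 for the first boundary bin and 11.6 for the second boundary bin, so that the 2 bins outside Tars carried most of it. The same order held in 1B1, except between the gene-body and start bins, with 3.90, 3.77, 8.06 and 7.90. In 1B1 -cohesin the values were 2.78, 1.70, 4.71 and 2.44, and the ratio to 1B1 was largest for the second boundary bin at -1.70 ± 0.35 and smallest for the gene-body bin at -0.49 ± 0.28.

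Npr3, which encodes the clearance receptor for natriuretic peptides, starts inside the TAD near its downstream end, 506 kb from the Tars start, and had the highest contact among the protein-coding gene starts by the mean of the untreated lines, though not in 1B1 -cohesin. The anchor had 5.59 ± 0.30 in 1A2, 6.09 ± 0.29 in 1F4 and 4.54 ± 0.26 in 1B1, and 2.85 ± 0.26 in 1B1 -cohesin with its start. The order of libraries was that of the downstream boundary, and the log2 ratio of 1B1 -cohesin over 1B1 was -0.67 ± 0.16. The same ratio over 367 other anchors had a standard deviation of 0.56. The start bin of Tars had 4.62, 4.62, 4.07 and 3.64 with Npr3, a ratio of -0.16 ± 0.30, whereas the second boundary bin had 7.19, 7.97, 5.68 and 2.52, a ratio of -1.18 ± 0.33.

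Rad1, which encodes a subunit of the DNA damage checkpoint clamp, starts 914 kb upstream of the Tars start, beside the start of Brix1, a ribosome biogenesis factor that shares its bin. The anchor had 3.89 ± 0.33 in 1A2 (149 reads), 3.62 ± 0.30 in 1F4 (158), 3.68 ± 0.32 in 1B1 (147) and 3.00 ± 0.32 in 1B1 -cohesin (96) with its start. The 3 untreated lines overlapped within their errors, and the log2 ratio of 1B1 -cohesin over 1B1 was -0.30 ± 0.20. It was -0.59 ± 0.20 without division by the expected value, -0.58 ± 0.33 with 1 partner bin and -0.09 ± 0.15 with 5. The same ratio over 302 other anchors had a standard deviation of 0.76. The contact with Rad1 was named in the choice of the anchor, so that its level is a description. In 1A2 and 1B1 it was higher in the gene-body and start bins than in the 2 boundary bins, opposite to the contact with the downstream boundary. In 1A2 the contact with Rad1 was 5.93 for the gene-body bin, 5.74 for the start bin, 2.75 for the first boundary bin and 1.16 for the second boundary bin. In 1B1 it was 4.71, 5.70, 2.76 and 1.55. The second boundary bin had 8 to 13 reads with Rad1 per library, so that its values, among them 2.17 ± 0.60 in 1B1 -cohesin, are imprecise.

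**Figure D4:**
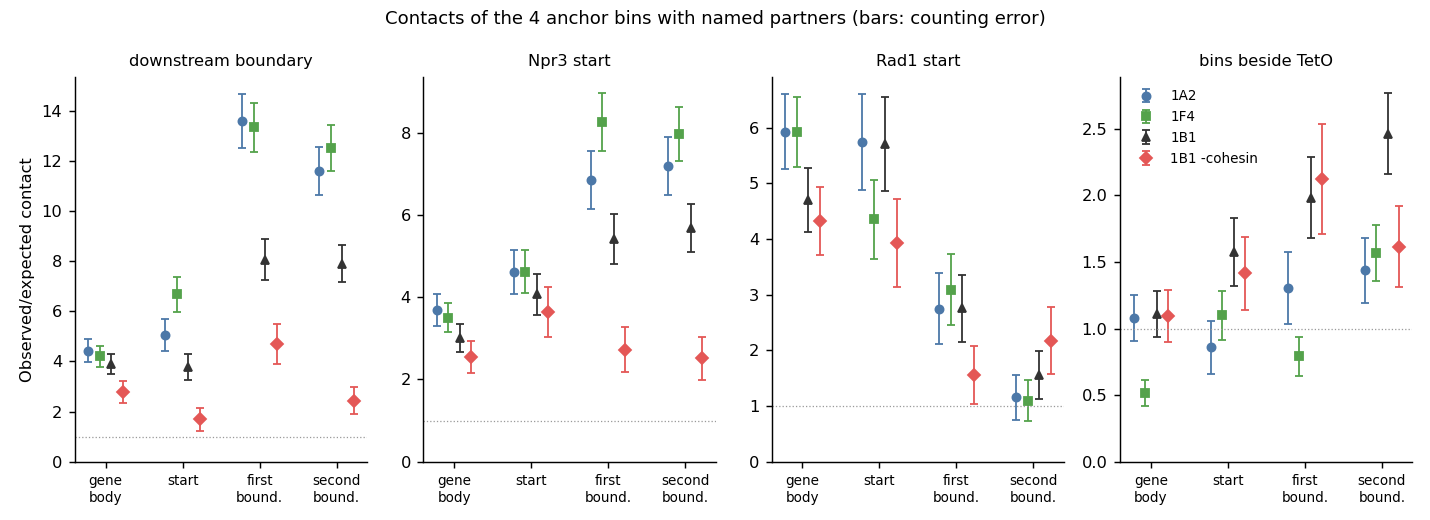
Observed/expected contact (counting errors as bars) of each of the 4 anchor bins with 4 partners, for the 4 libraries (bound. is boundary bin). In the 3 untreated lines contact with the downstream boundary and the Npr3 start was highest in the 2 boundary bins, up to 13.6 and 8.25, and contact with the Rad1 start was highest in the 2 Tars bins, up to 5.93.

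In the contact with the bins beside the TetO array, 1B1 stood above both lines without CTCF sites. With the 2 bins on each side of the TetO bin, 310 kb away, the anchor had 1.17 ± 0.11 in 1A2 (143 reads), 0.99 ± 0.08 in 1F4 (167), 1.78 ± 0.13 in 1B1 (232) and 1.56 ± 0.15 in 1B1 -cohesin (131). The log2 ratio was 0.61 ± 0.17 for 1B1 over 1A2, 0.85 ± 0.16 for 1B1 over 1F4 and -0.24 ± 0.18 for 1F4 over 1A2. The same ratios over 396 other anchors had standard deviations of 0.26, 0.29 and 0.27, and that of 1B1 -cohesin over 1B1 had 0.55. Here too a difference of clones cannot be told apart from one of CTCF sites. The ratio of 1B1 -cohesin over 1B1 was -0.19 ± 0.18, but -0.67 ± 0.18 without division by the expected value and -0.44 ± 0.27 with 1 bin on each side. Against the mean of 1A2 and 1F4 it was 0.53 ± 0.17. By bin, 1B1 over 1A2 was 0.04 ± 0.32 for the gene-body bin, 0.88 ± 0.41 for the start bin, 0.60 ± 0.37 for the first boundary bin and 0.78 ± 0.30 for the second boundary bin. The bins beside the LacO array, 163 kb away, had 0.88, 0.97, 0.85 and 0.98, and none of their 3 ratios between untreated lines passed 0.19 in size.

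With the whole interior of the TAD (82 bins) the anchor had 1.42 ± 0.03, 1.48 ± 0.03, 1.33 ± 0.03 and 1.16 ± 0.03, and with as many bins of the upstream flank it had 1.13 ± 0.02, 1.22 ± 0.02, 1.16 ± 0.02 and 1.12 ± 0.03. The ratio of 1B1 -cohesin over 1B1 was -0.20 ± 0.05 for the interior and -0.05 ± 0.05 for the flank. The same ratios over 361 other anchors had standard deviations of 0.27 and 0.26, wider than the counting errors given. Without division by the expected value the ratios of the anchor were 0.0303 ± 0.03 and 0.10 ± 0.03, and from reads before balancing -0.24 ± 0.04 and -0.19 ± 0.04. The signs and the gap between the sides thus rest on the processing. The single bins differed more than these means: the interior ratio was 0.05 ± 0.09 for the gene-body bin and -0.42 ± 0.08 for the second boundary bin, and the flank ratio was -0.31 ± 0.07 and 0.27 ± 0.10. By these means each outer bin had less contact with its own side in 1B1 -cohesin. At 20 to 200 kb this was not so. There the ratio was 0.15 ± 0.10 for the gene-body bin upstream and 0.08 ± 0.11 for the second boundary bin downstream.

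Contacts of the anchor that formed a local maximum within 5 bins, at least 60 kb away and with at least 100 reads in each untreated library, occurred at 4 places. The first was the downstream boundary bin itself, which holds a copy of the 7SK small nuclear RNA gene, with 9.70, 10.9, 6.93 and 3.71. The next was the bin of the Npr3 start (11833601 to 11840000), with 6.69, 7.42, 5.84 and 3.91. The other 2 lay upstream. The bin of Rxfp3, the receptor for relaxin-3 (10963201 to 10969600), had 4.15, 4.28, 3.77 and 2.91, and a bin 27.7 kb from C1qtnf3, which encodes a secreted protein of the C1q/TNF-related family (10848001 to 10854400), had 4.16, 3.86, 3.76 and 1.91. The log2 ratios of 1B1 -cohesin to 1B1 were -0.90 ± 0.27, -0.58 ± 0.22, -0.37 ± 0.18 and -0.98 ± 0.29 in the order given. As these places were picked by their contact in the untreated lines, lower values in 1B1 -cohesin are a description only.

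The starts of 21 protein-coding genes in the region had mean observed/expected of 1.12 to 5.40 over the untreated lines. The anchor's mean over all partners, gene starts or not, was itself 1.53 to 2.59 in these lines in the ranges from 250 to 1000 kb. After Npr3 and the bin of Rad1 and Brix1 (3.73), the highest were Rxfp3 with 3.23, 3.70, 2.94 and 2.37 and Dnajc21, a co-chaperone of ribosome biogenesis, with 3.47, 3.28, 2.97 and 3.63. Dnajc21 lies 929 kb upstream and its log2 ratio of 1B1 -cohesin over 1B1 was 0.29 ± 0.24. The lowest were Gm2606, Agxt2, an aminotransferase of mitochondria, and Adamts12, a secreted metalloprotease. Gm2606 had 1.23, 0.93, 1.20 and 1.04, and Adamts12 had 1.32, 1.18, 1.26 and 1.20. Agxt2 had 1.04, 2.20, 0.36 and 1.45 from only 2 to 9 reads per library, so that its place in the order is not settled. Zfr, a zinc finger RNA-binding protein that starts 718 kb downstream, beyond the TAD, had 2.94, 3.20, 2.32 and 1.29 (-0.85 ± 0.28).

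Partners of 3 bins at least 60 kb away with a mean of at least 50 reads over both libraries (223 partners) were ranked by the ratio of 1B1 -cohesin over 1B1. A partner could pass this minimum through 1B1 alone, so the ranks are a description. The largest fall was 662 kb downstream, 47.6 kb from Zfr, where contact was 3.34, 3.54, 1.95 and 0.55 (-1.83 ± 0.36, with 98 reads in 1B1 and 22 in 1B1 -cohesin). Partners 9.19 kb from Zfr and inside it followed, with -1.57 ± 0.35 and -1.18 ± 0.34. The other 2 of the 5 largest falls lay near the downstream boundary, 26.3 kb from Sub1, a transcriptional coactivator (5.82, 6.46, 4.46 and 2.07, -1.11 ± 0.19), and 10.97 kb from Npr3 (-0.87 ± 0.33). The 5 largest rises were smaller, from 0.57 ± 0.33 to 0.70 ± 0.32, and 4 of them lay upstream, 2 of these inside Adamts12 at 202 and 259 kb. At the largest, 573 kb upstream, contact was 0.89 ± 0.15, 1.48 ± 0.19, 0.99 ± 0.16 and 1.61 ± 0.24, so that 1B1 -cohesin and 1F4 overlapped. At the larger of the Adamts12 rises the contact was 0.61 ± 0.07 in 1A2, 0.45 ± 0.05 in 1F4 and 0.45 ± 0.06 in 1B1, and 0.69 ± 0.09 in 1B1 -cohesin, so that 1B1 -cohesin and 1A2 overlapped within their errors.

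Single bin pairs were counted as past 2-fold where their observed/expected differed by more than that and the mean of both libraries was at least 20 reads. Such counts compare single libraries and include counting error. A pair can pass the read minimum through the library in which it is high, and in most of the pairs past 2-fold in each comparison below the lower library had fewer than 20 reads. The counts and their shares are therefore a description, also where they are set beside the region, whose pairs passed the same minimum. Between 1F4 and 1A2, the lines without CTCF sites, 4 of 184 anchor pairs were higher in 1F4, against 0.776% of all pairs of the region, and 1 was lower, against 0.388%. Between 1B1 and 1A2, 1 of 158 was higher in 1B1 (region 0.605%) and 7 were lower (0.696%). The 1 higher pair joined the second boundary bin to the bin just downstream of the TetO bin, with 13 reads in 1A2, 24 in 1F4 and 34 in 1B1, and 10 in 1B1 -cohesin. Between 1B1 and 1F4, 0 of 191 were higher (region 0.594%) and 6 were lower (0.902%). Of these 6, 5 joined the start or first boundary bin to bins 506 to 582 kb downstream, past Npr3, the farthest of which overlaps Sub1. Over 450 kb these 5 were 7.69% of 65 anchor pairs, against 4.53% of the 287 pairs of the region, which include them.

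Between 1B1 -cohesin and 1B1, 11 of 116 anchor pairs were higher (9.48%, region 2.01%) and 10 were lower (8.62%, region 3.31%). From reads before balancing the counts were 5 higher and 13 lower (region 1.87% and 4.02%), so that the split rests on the balancing. The direction followed the separation. All 11 higher pairs were under 100 kb, where 70 anchor pairs were measured. Of these 70, 15.7% were higher, against 1.63% of the pairs of the region at that range. The bins were chosen for low contact across them in 1A2 and 1F4, so this share is a description. Most of the 11 higher pairs had fewer than 20 reads in 1B1. The first boundary bin with the bin 44.8 kb upstream, which holds a SNORA17 small nucleolar RNA gene, had the largest of these, with 12 reads in 1A2, 25 in 1F4 and 12 in 1B1, and 34 in 1B1 -cohesin (1.46). Of the 10 lower pairs, 3 were at 100 to 450 kb (12.5% of 24, region 7.83%) and 7 beyond. At over 450 kb, 31.8% of 22 anchor pairs were lower against 14.9% of the 101 pairs of the region, which include these 22. Most of the 22 pairs had fewer than 20 reads in 1B1 -cohesin, so that at this range the minimum favours pairs that are higher in 1B1. The largest fall joined the second boundary bin to the bin beside the downstream boundary (11884801 to 11891200), with 60, 65, 44 and 5 reads (-2.47). Of the 10 lower pairs, 3 joined the gene-body bin to upstream bins near C1qtnf3 and in Slc45a2 and Rxfp3, and 7 joined the 2 boundary bins to bins downstream.

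**Figure D5:**
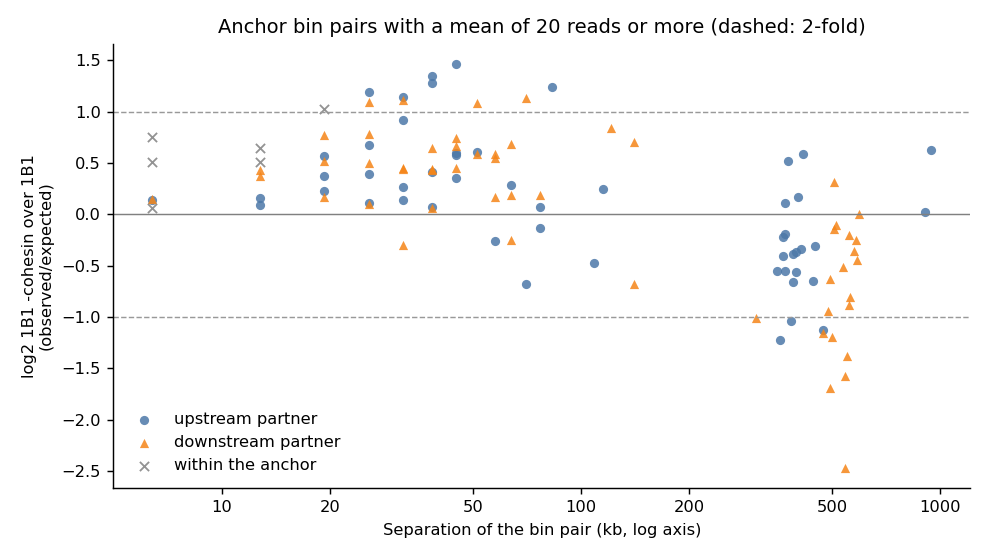
Log2 ratio of observed/expected contact in 1B1 -cohesin over 1B1 against the separation in kb (log axis) for the 112 anchor bin pairs between different bins with a mean of at least 20 reads (4 pairs of a bin with itself are not drawn); dashed lines mark 2-fold. Pairs past 2-fold higher all lie under 100 kb, and pairs past 2-fold lower all lie at 307 kb or more.

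Gene starts with a balance most like that of the anchor were sought among the 15 starts with enough bins on both sides, by the Euclidean distance over the 4 libraries. The nearest was Slc45a2, a melanosome transporter (0.06, 0.17, 0.02 and -0.20, distance 0.278), followed by C1qtnf3 (0.37, 0.53, 0.45 and 0.04, distance 0.752) and Amacr, a racemase of fatty acid oxidation (-0.32, -0.26, -0.18 and -0.69, distance 0.861). All 3 start 399 to 447 kb upstream of Tars, close to each other, so that their contacts overlap. Other starts were on one side in every library, such as Npr3 (-1.64, -1.86, -1.22 and -0.69) and Sub1 (1.20, 1.27, 1.22 and 0.86).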

How the data were processed

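Tiled Capture-C maps of 4 libraries were used. Per the paper's methods and the processing notes, the authors mapped read pairs to mm9 with HiC-Pro 2.11.4, kept unique valid pairs inside the targets, binned them at 6.4 kb and applied iterative correction (ICE). The deposited values are therefore a balanced contact signal, scaled to nearly the same sum in every library, and balancing evens out bins with few restriction sites or poor capture. Ligation products with the rest of the genome are not part of it. Whole reads were recovered by solving 1 factor per bin. All values (100%) came within 0.05 of a whole number, with a largest deviation of 0.00867 reads, which gave 3214144, 4089968, 3234581 and 3622612 read pairs for 1A2, 1F4, 1B1 and 1B1 -cohesin, of which 37.8 to 38.1% lay in the region and 19517, 24761, 19906 and 19225 in the pairs of the anchor. Of the 456 bins, 1 was not balanced and was left out.

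Observed/expected values, their Poisson errors, balances, insulation and counts past 2-fold were computed with Python 3.11.15, NumPy 2.4.6, pandas 2.3.3 and SciPy 1.17.1. The recovery was tested on simulated data. The paper's methods describe no molecular identifiers. With 1 library per group, intervals of read shares and errors given as ± cover counting error only. Samples were grouped by their labels. Named partners were the downstream boundary, the bins beside the arrays, Rad1, Npr3, the 3 highest and 3 lowest gene starts, local maxima with at least 100 reads, and the 5 largest rises and 5 largest falls at least 60 kb away and 5 bins apart; Zfr, Sub1 and Slc45a2 were named from these or from the balance. The anchor, the lists and the measures were chosen with earlier results of these data known. Alternatives covered the expected value, the anchor bins, balancing, separations, partner width, fold, read minimum, insulation square and the reference library. Gene models were GENCODE vM1 on NCBIM37, whose chromosome lengths equal those of the bin table. The captured regions on other chromosomes were not used.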

Additional observations from a re-analysis of the deposited data

How the results depend on the processing

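Over 208 alternatives of 28 results, 144 moved by no more than the half-width of the 95% counting interval or, for counts, 1.5-fold, 59 moved by more, and 5 took the other sign from a value that lay outside its interval around 0 (values within it that took the other sign are among the first 2 counts). No paired analysis was possible because each group had 1 library. The cause of these shifts was not tested. Ratios below are log2 of 1B1 -cohesin over 1B1 unless named.

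The ratio with the TAD interior changed sign without division by the expected value (0.0303) and for the Tars start bin alone (0.0257); it was -0.32 with a smoothed median in the division and -0.35 for the 2 boundary bins. The flank ratio was -0.19 from unbalanced reads, -0.18 with the smoothed median and 0.10 without division. Without division the ratio with the downstream boundary was -1.44 and that with the bins beside TetO -0.67. Against the mean of the 3 untreated lines these were -1.45 and 0.25. With 1 untreated library left out, and the mean of the others as reference, the ranges were -1.62 to -1.33 for the downstream boundary, 0.08 to 0.53 for the bins beside TetO, -0.32 to -0.25 for the TAD interior, -0.34 to -0.28 for Rad1 and -0.09 to -0.03 for the flank. Without 1A2 the first 2 were -1.38 and 0.17. The sign at TetO thus rested on 1B1 as the reference, while the downstream boundary was lower under every alternative run. For 1B1 over 1F4 beside TetO the start bin alone gave 0.52.

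The difference in balance of the 4 bins was -0.26 for the boundary bins and -0.51 over 50 to 1000 kb; its level in 1B1 was -0.12 from unbalanced reads, 0.12 without division, -0.54 for the start bin, 0.49 for the boundary bins, 0.55 over 20 to 200 kb and 0.18 over 50 to 1000 kb. Over 20 to 200 kb the difference was 0.29 for the gene-body bin and -0.22 for the second boundary bin, and the levels in 1B1 changed sign for the gene-body bin (0.0182) and the start bin (0.27). Over 50 to 1000 kb the differences were -0.18, -0.27, -0.54 and -1.14 from the gene-body to the second boundary bin, the first 3 with the other sign. Left-out ranges were 0.76 to 0.86, 0.09 to 0.15, -0.13 to -0.00066 and -0.66 to -0.57 for these bins, -0.05 to 0.01 for the anchor and 0.75 to 0.82 for insulation.

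Counts past 2-fold, higher and lower, became at 1.5-fold 18 and 13 (1F4 over 1A2), 4 and 25 (1B1 over 1A2), 9 and 33 (1B1 over 1F4) and 29 and 18 (1B1 -cohesin over 1B1). With at least 10 mean reads they were 26 and 11, 16 and 24, 19 and 29, and 24 and 42. With at least 50 they were 0 and 0, 0 and 0, 0 and 0, and 2 and 1. From unbalanced reads 1B1 over 1F4 had 1 higher and 1B1 -cohesin over 1B1 had 5 higher and 13 lower. Depth limits single pairs: most had under 20 reads.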
